A study of Leptinotarsa decemlineata with 6 samples.

Results

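The genes described here are the annotated cysteine proteases of the Colorado potato beetle (CPB), Leptinotarsa decemlineata: the intestains, the cathepsin B and cathepsin L genes, 4 other cysteine protease genes and 1 autophagy protease. A gene was taken when its best match in the NR or Swissprot protein database was named intestain, cysteine protease, cysteine proteinase, cathepsin B or cathepsin L, and was not named an inhibitor, a caspase or a cystatin. It also had to reach a mean of at least 1 TPM in either group of libraries. TPM counts the fragments of a gene after division by its transcript length, scaled so that each library sums to 1000000. Of 236706 genes in the files, 80 matched the names and 51 of these reached the minimum. The 51 genes were thus chosen by annotation and by their group mean TPM, the same values that are compared below, so those values are a description of the 51 genes, and the other 29 matching genes are accounted for at the end.

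Cysteine proteases of the papain family are made as inactive precursors, in which an N-terminal propeptide covers the active site until it is cut away. In most animal cells cathepsins B and L work in the lysosome, where they break down proteins. Leaf beetles also secrete enzymes of this family into the midgut to digest leaf protein, and the intestains are the set described from the CPB gut. Potato plants make protease inhibitors against such enzymes, and the beetle is known for expressing many variants of them.

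The study asked how the gut microbiota bears on the olfactory genes of the beetle, and its transcriptome comparison holds 3 libraries labelled non-treatment and 3 labelled antibiotic. According to the methods, adults of the antibiotic group ate potato leaves soaked in tetracycline, penicillin, ofloxacin, ciprofloxacin and ampicillin with Tween-20 for 3 days, and controls received sterile water and leaves soaked in Tween-20 over the same time. The legend of the paper's expression figure instead describes non-treatment beetles as given fresh leaves alone. Which of these feeds the non-treatment libraries had is not settled by the labels. The concentration used for these libraries and the age and sex of the adults are not stated in the labels or methods. Every library is labelled wild type (WT) and head, the cell labels add an olfactory cell, and the methods speak of RNA from whole heads. The sample titles begin with AA in the non-treatment and AH in the antibiotic group, and neither is explained. The comparison listed with the paper is named AH against HH, its control levels differ from those of the AA libraries and its antibiotic levels match the AH libraries for most of the genes it lists. The AA libraries may therefore not be the controls of that comparison, and every difference below is one between the libraries as labelled. Nothing in the labels says whether replicates came from separate animals or pools, so p-values here measure the spread between these samples only.

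The labelled tissue was checked first, because the groups differed in markers of tissue as well as in treatment. A gene was called lower or higher at an adjusted p under 0.05 in limma, fitted over all 33919 genes that reached a mean of 1 TPM in a group. Of 10 eye genes tested, 7 were higher in the antibiotic group, and their summed level was 29.6 to 33.8 TPM in the libraries labelled non-treatment against 347 to 507 TPM in the antibiotic libraries. The rhodopsin gene DN52274_c7_g1, which encodes the light-sensing pigment of the eye, lay between 0.252 and 0.639 TPM in the former and between 138 and 212 TPM in the latter. None of the 10 eye genes was at 0 in all libraries of a group. Of 37 sperm and axoneme genes 24 were lower in the antibiotic group and 2 were higher, with sums of 426 to 1395 TPM against 396 to 545 TPM. The antibiotic sums were in large part DN58913_c2_g2, an axonemal dynein heavy chain gene that was called higher. It read 82.9, 76.5 and 82.8 TPM in the libraries labelled non-treatment against 279, 288 and 417 TPM. Of the 37 genes, 4 were at 0 in every antibiotic library. Of 21 plant cell wall enzymes of the gut, 10 were lower and 0 higher, with sums of 798 to 3741 TPM against 10.6 to 74 TPM. Of these 21, 1 was at 0 in every antibiotic library. These lists hold genes that reached the minimum in a single group, so their counts of calls and of genes at 0 are only a description. The tissue in the tubes and the treatment therefore cannot be told apart in these groups, and in bulk RNA fewer cells of a type and less RNA per cell cannot be told apart either. Count totals of the 5 libraries with counts lay between 25397497 and 33613953, and between 93718 and 111005 genes were above 0 in each library.

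The cysteine protease genes fell into classes with unlike patterns. The 16 intestain genes summed to 348, 11064 and 1340 TPM in non-treatment replicates 1, 2 and 3 and to 9.03, 6.35 and 95.6 TPM in antibiotic replicates 1, 2 and 3. The antibiotic libraries all lay below the libraries labelled non-treatment, with means of 37 ± 50.8 TPM against 4251 ± 5921 TPM (SD, n = 3 each). Non-treatment replicate 2 carried most of that mean, which was 844 TPM without it, still above every antibiotic library. The 13 cathepsin B genes summed to 359, 2174 and 1051 TPM against 196, 310 and 360 TPM, so that the lowest library labelled non-treatment and the highest antibiotic library were level. Their means were 1195 ± 916 TPM and 289 ± 83.7 TPM, and 705 TPM in the non-treatment group without replicate 2. The 17 cathepsin L genes summed to 1918, 2208 and 2496 TPM against 1820, 4577 and 2653 TPM and overlapped between the groups. The 4 other genes summed to 1559, 1437 and 1912 TPM against 2279, 2994 and 3038 TPM, each antibiotic library being above each library labelled non-treatment. Only 1 of these 4, DN56791_c3_g4, has a listed catalytic domain, and it overlapped between the groups, with means of 154 and 165 TPM. The largest means were those of DN62157_c2_g9, with the propeptide alone (1063 and 1780 TPM), and DN63851_c3_g2, with no listed domain (345 and 743 TPM). Thus the most abundant class changed from intestains in non-treatment replicate 2 to cathepsin L in the other libraries labelled non-treatment, and cathepsin L or the other genes led in the antibiotic libraries.

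**Figure D1:**
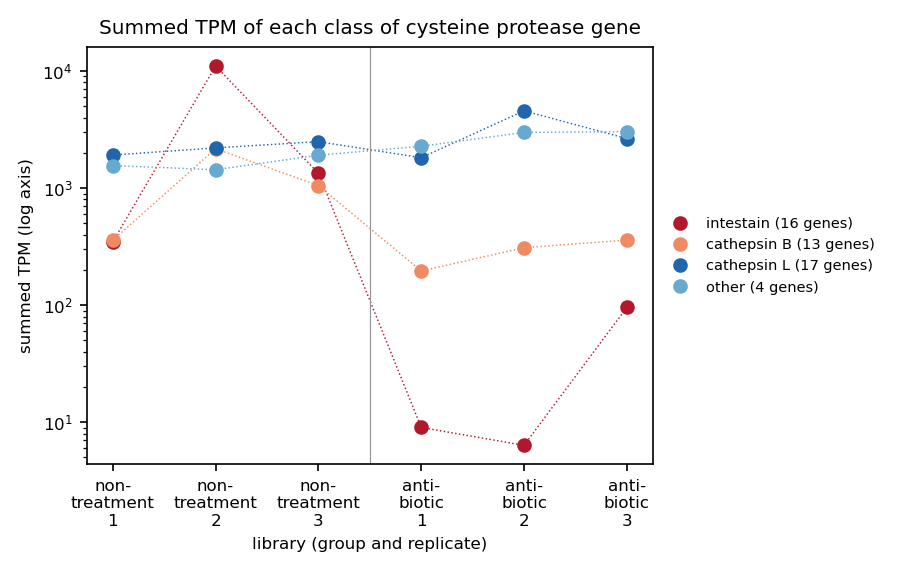
Summed TPM (log axis) of 4 classes of cysteine protease gene in each of the 6 libraries, 1 point per class and library, with dotted lines only to guide the eye. The intestain sum is between 348 and 11064 TPM in the libraries labelled non-treatment and between 6.35 and 95.6 TPM in the antibiotic libraries, while the cathepsin L sums of the groups overlap.

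The genes of a class were not equally complete. Domain searches deposited with the annotation found the catalytic domain of the papain family in 37 of the 51 genes and the propeptide alone in 9, found the peptidase domain of the autophagy family in 1, and listed neither in 4. Among the 16 intestain genes 11 carried the catalytic domain, 4 the propeptide alone and 1 neither. All 16 had a CPB protein as their best match, but they matched only 10 database entries, and 4 entries were matched by more than 1 gene. Swissprot, which holds few beetle proteins, named a cathepsin L for 13 of the 16. The 51 genes came from 40 Trinity clusters, and 19 genes shared a cluster with another member. Reads of near-identical copies can be split between such genes, so values of single intestains are less certain than their sum.

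Among the intestains, which digest leaf protein in the larval and adult gut, DN57306_c4_g1 was the most abundant. It read 145, 5628 and 584 TPM in the libraries labelled non-treatment and 0, 0.137 and 45.9 TPM in the antibiotic libraries. The groups did not overlap, and within the non-treatment group the highest library was 38.7 times the lowest. In counts the gene had 2711, 103867 and 12074 fragments in non-treatment replicates 1, 2 and 3, and 2 and 885 in antibiotic replicates 2 and 3. Group means were 2119 ± 3047 TPM and 15.4 ± 26.5 TPM (SD, n = 3 each), a difference of the mean log2(TPM + 1), antibiotic minus non-treatment, of -7.70 ± 1.74 (SE). In the limma fit over all 33919 genes tested the Benjamini-Hochberg adjusted p was 0.0322. The pseudocount of 1 makes such differences smaller for genes of low TPM.

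The next intestain, DN53845_c5_g2, carried the propeptide alone in its assembled sequence. It stood at 23.6, 2731 and 119 TPM against 0, 0.125 and 8.88 TPM, again without overlap. The difference was -6.49 ± 1.66 (SE) with a limma adjusted p of 0.0496, just inside the threshold of 0.05. DN63589_c1_g1, with a catalytic domain, read 24.1, 335 and 278 TPM against 0.595, 1.06 and 16.6 TPM. This gene was nearly level in non-treatment replicates 2 and 3, unlike the preceding pair of genes, and its difference was -5.10 ± 1.2 (limma adjusted p = 0.0367). DN62069_c5_g6 read 24.7, 393 and 177 TPM against 0.132, 0.268 and 12.7 TPM, with a difference of -5.49 ± 1.22 (limma adjusted p = 0.0297). DN57123_c0_g2 read 10.4, 147 and 34.8 TPM against 1.19, 0.367 and 2.9 TPM, with a difference of -4.11 ± 0.86 (limma adjusted p = 0.0239). In both genes every antibiotic library was below every library labelled non-treatment. DN59739_c3_g1 also showed no overlap, at 3.91, 163 and 48.6 TPM against 0.197, 0.0364 and 3.76 TPM, but antibiotic replicate 3 came close to non-treatment replicate 1. Its difference of -4.24 ± 1.21 did not pass the test (limma adjusted p = 0.0712).

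A further 4 of the 10 most abundant intestains were admitted by the non-treatment group alone, and no test is given for them. DN62069_c5_g1 was listed at 70.9, 884 and 34.7 TPM in the libraries labelled non-treatment and at 0 in all 3 antibiotic libraries. It had 3571, 35486 and 1655 fragments in the former and 0 in antibiotic replicates 2 and 3, where a count of 0 still allows up to 3. DN50598_c2_g5 followed the same order, with 20.2, 342 and 5.13 TPM against 0, 0.0292 and 0 TPM. In these genes non-treatment replicate 3, not replicate 1, was the lowest of its group. DN58882_c1_g1 read 3.35, 175 and 24.4 TPM against 0.223, 0.719 and 1.97 TPM. DN56706_c2_g1 read 1.65, 90.8 and 16.8 TPM against 0, 0 and 1.16 TPM. Both again had their lowest value of the non-treatment group in replicate 1. Of the 6 intestains of lower mean TPM, DN63960_c2_g2 and DN62069_c5_g2 were likewise listed at 0 in every antibiotic library. The groups of DN62069_c5_g2 overlapped, as did those of DN63120_c2_g1 and DN58882_c1_g6, since non-treatment replicate 1 was at 0, 0 and 0.0425 TPM in these genes, while replicate 2 was their highest library. DN52948_c0_g2, singled out like DN63960_c2_g2 and DN63120_c2_g1 after its values were seen, also overlapped, at 12.2, 0.701 and 2.01 TPM against 6.7, 3.28 and 1.17 TPM. It was the 1 intestain not highest in non-treatment replicate 2, and it made up 74.1% and 51.6% of the small intestain sums of antibiotic replicates 1 and 2. Its difference was 0.03 ± 0.773 (limma adjusted p = 0.988), and the sign turned when non-treatment replicate 2 (-0.60), non-treatment replicate 3 (-0.19) or antibiotic replicate 1 (-0.42) was left out.

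**Figure D2:**
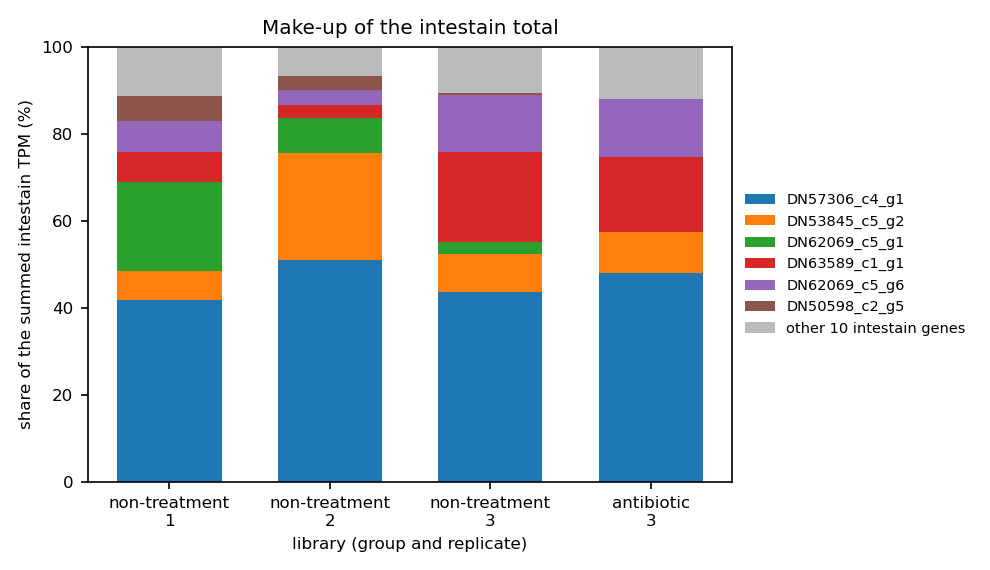
Share (%) of the summed intestain TPM held by each of the 6 most abundant intestain genes and by the other 10 together, 1 bar for each library with an intestain sum above 10 TPM. DN57306_c4_g1 holds 41.7% to 50.9% in all 4 bars, while DN62069_c5_g1 holds 20.4%, 7.99% and 2.59% in non-treatment replicates 1, 2 and 3 and 0% in antibiotic replicate 3.

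The make-up of the intestain sum was compared over the 4 libraries in which it exceeded 10 TPM. DN57306_c4_g1 held 41.7%, 50.9% and 43.6% of it in non-treatment replicates 1, 2 and 3 and 48.1% in antibiotic replicate 3. In antibiotic replicates 1 and 2, whose intestain sums were only 9.03 and 6.35 TPM, it held 0% and 2.16%. Shares of the other genes moved more. DN53845_c5_g2 held 24.7% in non-treatment replicate 2 and between 6.79% and 9.29% in the other 3 libraries. DN63589_c1_g1 held 20.8% and 17.4% in non-treatment replicate 3 and antibiotic replicate 3, but 6.92% and 3.03% in non-treatment replicates 1 and 2. DN62069_c5_g6 likewise held 13.2% and 13.3% in that first pair against 7.09% and 3.56%. These are shares within 1 library each, with no replicate check.

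The cathepsin B genes, related to an enzyme that trims and degrades proteins in the lysosome, all carried a catalytic domain and split into 2 kinds. The most abundant, DN61315_c0_g3, read 46.4, 839 and 304 TPM against 0, 0 and 21.7 TPM. Its groups did not overlap, and the difference was -6.34 ± 1.42 (limma adjusted p = 0.0306). DN60611_c3_g2 read 19.4, 273 and 90.7 TPM against 0.115, 0.121 and 10.2 TPM, a difference of -5.05 ± 1.14 (limma adjusted p = 0.0323). DN56920_c4_g1 read 21.6, 160 and 81.1 TPM against 0, 0 and 9.23 TPM, a difference of -4.94 ± 1.03 (limma adjusted p = 0.0234). DN60282_c4_g7 showed the same order of libraries at 40.1, 609 and 272 TPM against 0, 0 and 35.1 TPM, with antibiotic replicate 3 close below non-treatment replicate 1. Its difference of -5.85 ± 1.52 did not pass the test (limma adjusted p = 0.0525). The best matches of these 4 genes were cathepsin B proteins of ticks, mealworms, bugs and spiders, not of the CPB.

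The other kind of cathepsin B gene was present in all 6 libraries at similar levels. DN64821_c3_g3, whose best match was a cathepsin B of the corn rootworm Diabrotica virgifera, read 169, 145 and 209 TPM against 169, 257 and 228 TPM. The groups overlapped, and the difference was 0.32 ± 0.244 (limma adjusted p = 0.477). DN62293_c0_g4 matched a cathepsin B precursor of the CPB itself and, in Swissprot, the tubulointerstitial nephritis antigen-like protein, a relative of cathepsin B known from mammals as a secreted matrix protein. It read 25.7, 15.3 and 28.4 TPM against 16.9, 27 and 26.2 TPM, a difference of 0.03 ± 0.296 (limma adjusted p = 0.965). Its sign turned when non-treatment replicate 2 (-0.23), antibiotic replicate 2 (-0.09) or antibiotic replicate 3 (-0.06) was left out. Together with DN64821_c3_g2, added here after its values were seen, which shares a Trinity cluster with DN64821_c3_g3, these genes summed to 217, 169 and 260 TPM against 196, 309 and 278 TPM.

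**Figure D3:**
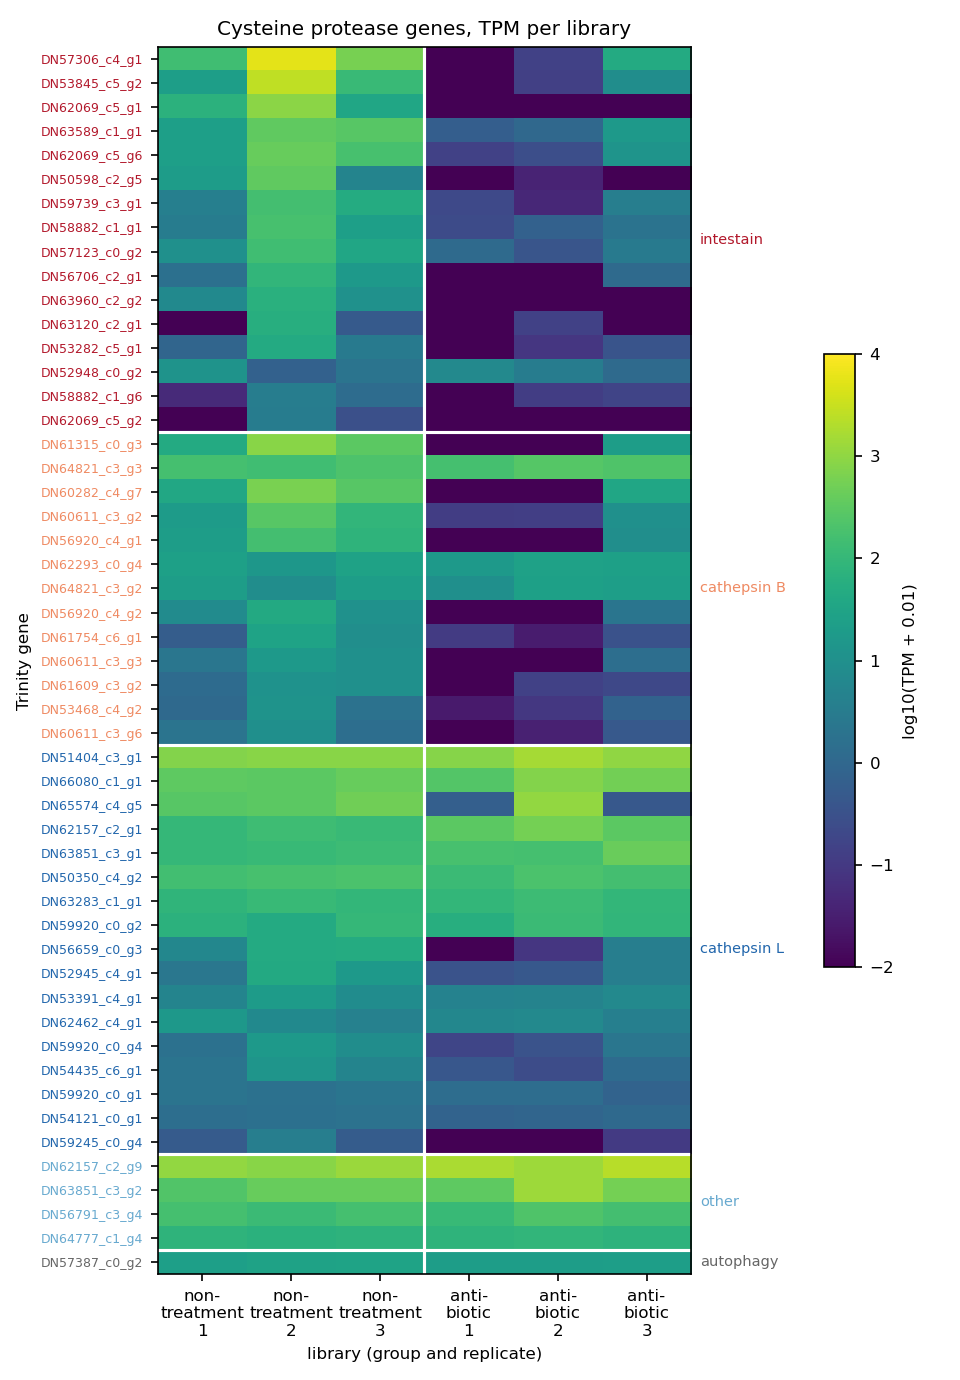
Levels of the 51 cysteine protease genes in the 6 libraries, as log10(TPM + 0.01) in colour, 1 row per gene (class at the right) and 1 column per library. Most intestain and cathepsin B rows are dark in antibiotic replicates 1 and 2, where 29 of the genes are below 1 TPM. Of the 17 cathepsin L rows, 6 are among these 29. Except for DN65574_c4_g5, the remaining cathepsin L rows and the other genes differ less between columns.

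After the values were seen, the 51 genes were divided by their level in antibiotic replicates 1 and 2, and 29 of them were below 1 TPM in both: 13 intestains, 10 cathepsin B and 6 cathepsin L genes. Over all genes tested, 18.0% had this pattern. The 29 genes summed to 459, 12714 and 1898 TPM in the libraries labelled non-treatment and to 2.5, 4.03 and 169 TPM in the antibiotic libraries. The division holds antibiotic replicates 1 and 2 below 1 TPM and leaves replicate 3 free, so the place of replicate 3 above them and the gap between the groups follow in large part from it. The order of the libraries labelled non-treatment was not used in it, though their mean was. Replicate 2, then 3, then 1 held in 24 of the 29 genes, in 6 of the other 22 and in 18.1% of all genes tested. The 18.1% is of genes not divided in this way, and 19 of the 29 genes entered through their non-treatment mean alone. These shares are therefore only a description. Set against non-treatment replicate 2, the median level of the 29 genes was 6.59% in replicate 1, 29.8% in replicate 3, 0% and 0.0443% in antibiotic replicates 1 and 2, and 2.59% in antibiotic replicate 3. The 13 intestains had medians of 1.92% and 10.4% in non-treatment replicates 1 and 3, and the 10 cathepsin B genes had 10.1% and 34.7%. The ratio of the intestain to the cathepsin B sum over these genes was 2.12, 5.28 and 1.29 in non-treatment replicates 1, 2 and 3 and 0.918 in antibiotic replicate 3. It was 2.37 and 4.32 in antibiotic replicates 1 and 2, where both sums were below 2 TPM. The remaining 22 genes summed to 3750, 4198 and 4931 TPM against 4323, 7905 and 6002 TPM. They include DN63589_c1_g1 and DN57123_c0_g2, which passed 1 TPM in antibiotic replicate 2 or 1 by little and had the same order of libraries labelled non-treatment as most of the 29.

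The cathepsin L genes are named for a lysosomal endopeptidase with many digestive relatives in beetles. Of the 17, 6 were among the 29 genes below 1 TPM in antibiotic replicates 1 and 2. Among the abundant ones, DN51404_c3_g1, DN66080_c1_g1 and DN50350_c4_g2 overlapped between the groups. DN51404_c3_g1 was the most abundant at 782, 844 and 853 TPM against 800, 1542 and 1019 TPM. Antibiotic replicate 2 stood above the rest and the groups overlapped, with a difference of 0.39 ± 0.29 (limma adjusted p = 0.467). DN66080_c1_g1, matched to a cathepsin L precursor of the flour beetle Tribolium castaneum, read 321, 316 and 405 TPM against 252, 756 and 516 TPM, a difference of 0.42 ± 0.394 (limma adjusted p = 0.565). DN50350_c4_g2, a propeptide-only gene, read 156, 181 and 204 TPM against 123, 198 and 158 TPM, a difference of -0.19 ± 0.238 (limma adjusted p = 0.672).

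A single library set the values of DN65574_c4_g5, a gene with a weak cathepsin L match (E value 6.0e-06) and no listed domain. It read 272, 300 and 499 TPM in the libraries labelled non-treatment but 0.638, 1072 and 0.435 TPM in the antibiotic libraries. Antibiotic replicate 2 held the highest value of all 6 libraries, with 10559 fragments, and replicate 3 had 4 fragments. The mean TPM of the groups was nearly equal, at 357 ± 124 and 358 ± 618 (SD, n = 3 each), while the difference of log2 means was -4.66 ± 2.31 (limma adjusted p = 0.269). Without antibiotic replicate 2 the difference was -7.81 (limma adjusted p = 0.00032), and on counts of 5 libraries, which lack antibiotic replicate 1, it turned to 0.50 in edgeR and 0.52 in DESeq2. No direction is therefore given for this gene.

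A single cysteine protease gene was higher in the antibiotic group in the limma test. DN62157_c2_g1 read 97.7, 139 and 118 TPM in the libraries labelled non-treatment and 302, 569 and 316 TPM in the antibiotic libraries. Every antibiotic library lay above every library labelled non-treatment, with means of 118 ± 20.9 and 396 ± 150 TPM (SD, n = 3 each), a 3.34-fold higher mean. The difference was 1.68 ± 0.296 with a limma adjusted p of 0.0119, and it stayed between 1.39 and 1.91 and past the threshold in all 15 alternatives. Its best match is a fly digestive cysteine proteinase with an E value of 3.3e-08, no protease domain is listed for it, and no role is known from the annotation. Its cluster partner DN62157_c2_g9 is the most abundant of the other cysteine protease genes, and reads could be split between them. That gene read 1082, 841 and 1266 TPM against 1763, 1345 and 2233 TPM, without overlap, but its difference of 0.73 ± 0.294 did not pass the test (limma adjusted p = 0.178). It carries the propeptide alone, and Swissprot names it CTLA-2-alpha, known from the mouse as a propeptide-like inhibitor of cysteine proteases. DN63851_c3_g1, another propeptide-only gene, read 96.9, 113 and 127 TPM against 175, 170 and 435 TPM. It also showed no overlap, and its difference was 1.06 ± 0.375 (limma adjusted p = 0.129).

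The other cysteine protease genes and the autophagy gene gave no call in limma. DN63851_c3_g2, the cluster partner of DN63851_c3_g1 with no listed domain, read 231, 403 and 401 TPM against 324, 1334 and 570 TPM. Antibiotic replicate 2 was the highest, and the difference was 0.91 ± 0.509 (limma adjusted p = 0.329), although edgeR and DESeq2 on 5 libraries called the gene higher. DN56791_c3_g4, matched to cathepsin F of the mealworm Tenebrio molitor and to CG12163 of Drosophila, read 167, 124 and 171 TPM against 111, 225 and 161 TPM, a difference of 0.06 ± 0.295 (limma adjusted p = 0.929) whose sign turned without non-treatment replicate 2 (-0.09) or antibiotic replicate 2 (-0.19). DN64777_c1_g4, a propeptide-only gene, was the most even, at 79.8, 68.7 and 74.2 TPM against 81.6, 90 and 74 TPM, with a difference of 0.14 ± 0.182 (limma adjusted p = 0.695). DN57387_c0_g2 is named ATG4B, a protease of another family that processes the ubiquitin-like proteins of autophagy in yeast and mammals. It read 24.3, 28.7 and 29.7 TPM against 21.3, 22.4 and 23.4 TPM. Its groups did not overlap, but the difference of -0.28 ± 0.18 did not pass the test (limma adjusted p = 0.388).

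Over the 51 genes, 15 were called lower and 1 higher in the antibiotic group, where 7.26% and 2.88% of all 33919 genes tested were called lower and higher. In 28 the antibiotic libraries all lay below the libraries labelled non-treatment and in 3 above, against 19.8% and 10.5% of all genes tested. Nothing is read from these counts, since 19 of the 51 genes entered through their non-treatment mean alone and 0 through their antibiotic mean alone. For the 32 genes with a mean of at least 1 TPM in both groups, 9 were called lower and 1 higher, against 2.67% and 2.83% of 22882 genes selected in the same way. The 9 lower genes were 5 intestains, 3 cathepsin B genes and the cathepsin L gene DN56659_c0_g3, which lies outside the rule for named genes and read 6.11, 46.3 and 48.4 TPM against 0, 0.0803 and 3.69 TPM. Its difference was -3.89 ± 0.874 (limma adjusted p = 0.0314). Each of the 9 lower genes reached a mean of 1 TPM in the antibiotic group only through antibiotic replicate 3. Antibiotic replicates 1 and 2 read at most 1.19 TPM in them, so 1 library decided their entry. The count of 9 is therefore also only a description. The median difference was -0.36 over the 32 genes and -0.09 over all 33919 genes tested, which include those that reached the minimum in a single group.

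The lower calls depended on which libraries were in the fit. Each count of the 32 genes is given with the share called lower, in the same fit, of all genes selected in the same way. Without non-treatment replicate 3, 0 were called lower (2.52% of all such genes), and 0 without antibiotic replicate 1 (0.975%). The count was 1 without non-treatment replicate 2 (1.21%) and 1 without antibiotic replicate 2 (1.42%). It was 12 without non-treatment replicate 1 (2.20%) and 9 without antibiotic replicate 3 (1.61%). In the count tests of 5 libraries, edgeR called 0 of them lower (1.56%) and DESeq2 called 1 (2.47%). The 9 genes kept their direction in all 15 alternatives, and DN62157_c2_g1 was the 1 gene called in all 15.

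**Figure D4:**
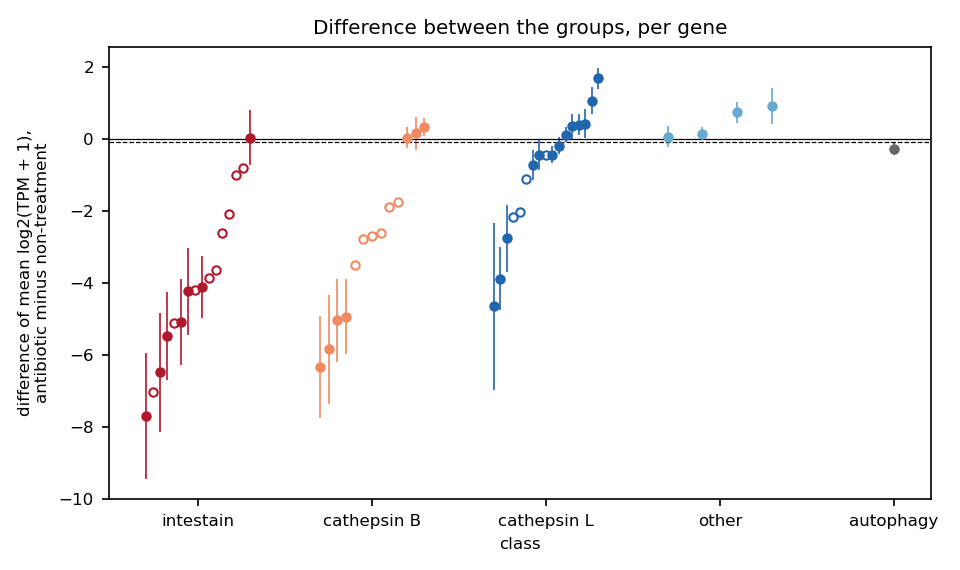
Difference of mean log2(TPM + 1), antibiotic minus non-treatment, for the 51 cysteine protease genes by class, with bars of 1 SE. Filled points are the 32 genes with a mean of at least 1 TPM in both groups, open points the 19 admitted by the non-treatment group alone, and the dashed line the median of all genes tested (-0.09). Intestain and cathepsin B genes reach down to -7.70 and -6.34, and the highest point is DN62157_c2_g1 at 1.68.

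At the minimum of 1 TPM, the 3 genes just inside were the intestains DN62069_c5_g2 and DN58882_c1_g6 and the cathepsin L gene DN59245_c0_g4, with means of 1.19, 1.6 and 1.6 TPM in the non-treatment group. The 3 just outside were DN53378_c0_g1, DN53258_c1_g4 and DN53975_c2_g1, with means of 0.827, 0.787 and 0.454 TPM in their higher group. DN53378_c0_g1, a cathepsin L gene, was the higher in the antibiotic libraries, at 0.274, 0.136 and 0.181 TPM against 0.758, 1.1 and 0.625 TPM. The 29 matching genes under the minimum were 4 intestains, 3 cathepsin B, 9 cathepsin L, 11 other and 2 autophagy genes. Of these, 9 were at 0 TPM in every library and 5 had a human protein as their best match.

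Other digestive and lysosomal genes were set beside the cysteine proteases by lists of annotation keywords. The lists include genes that reached the minimum in a single group, and 7.26% and 2.88% of all genes tested were called lower and higher. The 13 aspartic proteases, which include the cathepsin D family, summed to 1292, 9743 and 4769 TPM against 397, 670 and 1351 TPM. Non-treatment replicate 2 was again the highest and antibiotic replicate 3 the highest of its group, but 1 gene was called lower and 1 higher, and the median difference was -0.36. The 21 plant cell wall enzymes, which degrade pectin and cellulose, summed to 1038, 3741 and 798 TPM against 10.6, 11.1 and 74 TPM, with a median difference of -3.30. The 17 genes of the peritrophic matrix list summed to 1243, 1977 and 577 TPM against 45.3, 85 and 90.7 TPM. Of these, 3 were lower and 0 higher, with a median of -0.52. The peritrophic matrix is the chitin layer that lines the midgut, but the keyword also caught cuticular proteins analogous to peritrophins. None of these cuticular proteins was called, and the 3 lower genes were named peritrophin 1 in NR or Swissprot. Among 40 trypsin and chymotrypsin genes, a list that also caught serpins named antichymotrypsin, 19 were lower and 1 higher with a median of -2.17. Among 50 genes of the aminopeptidase and carboxypeptidase list, 11 were lower and 3 higher with a median of -0.36. Such enzymes take single residues from peptide ends, but the list also caught a carboxypeptidase inhibitor. It also caught matches to carboxypeptidase N subunit 2 with other NR names, such as toll-like receptor 3. The 20 other lysosomal genes summed to 453, 537 and 566 TPM against 398, 697 and 609 TPM, with 2 lower, 0 higher and a median of -0.13, close to the -0.09 of all genes tested. This list is not purely lysosomal either. Of the 2 lower genes, DN56747_c5_g5 is named a chitooligosaccharidolytic beta-N-acetylglucosaminidase in Swissprot. Of 28 chemosensory genes, 1 was lower and 7 were higher, with a median of 0.38. Of 7 genes annotated as cysteine protease inhibitors or cystatins, 0 reached the minimum and none could be tested. The part of the tissue markers in the differences of the intestains and cathepsins was not tested.

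**Figure D5:**
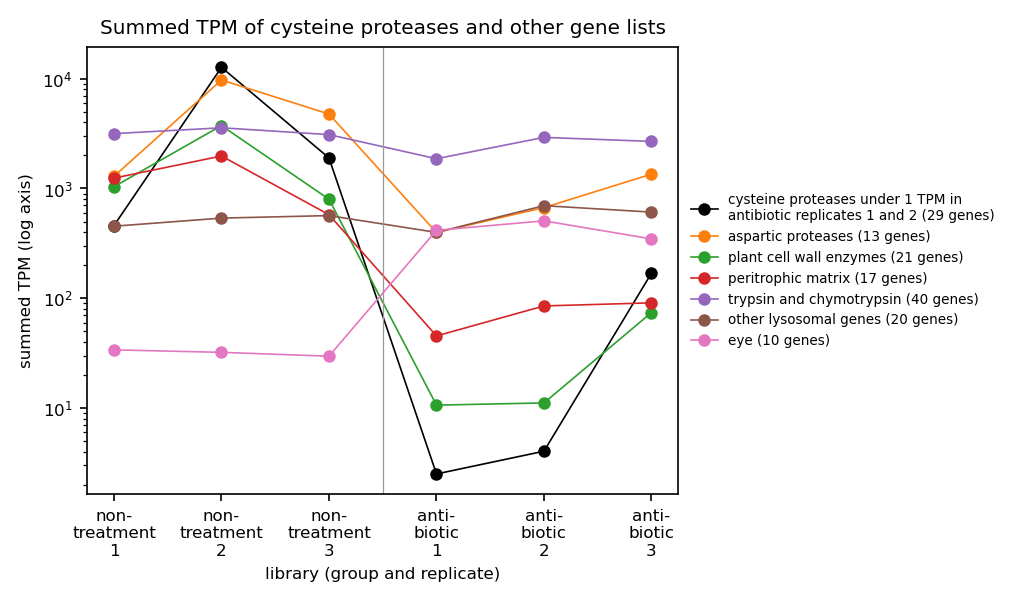
Summed TPM (log axis) in each of the 6 libraries for the 29 cysteine proteases below 1 TPM in antibiotic replicates 1 and 2 and for 6 other gene lists, with lines only to guide the eye. The cysteine proteases span 2.5 to 12714 TPM and are highest in non-treatment replicate 2. The plant cell wall enzymes, the peritrophic matrix list and the aspartic proteases are also highest there. The eye genes go from 29.6 to 33.8 TPM in the libraries labelled non-treatment to 347 to 507 TPM in the antibiotic libraries.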

How the data were processed

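The data are 6 RNA-seq libraries of adult CPBs labelled head. The authors deposited a TPM value per Trinity gene for every library, computed according to the methods from mapped fragments through featureCounts. They also deposited estimated counts, which were used for 5 libraries and rounded to whole numbers. The count column beside the TPM of antibiotic replicate 1 carries the name of replicate 2 and equals its counts, so no counts of replicate 1 entered a test. The submitters' processing notes name FastQC, Salmon and DESeq2 and a mouse genome build, while the paper's text speaks of a reference genome and the gene names are those of an assembly. For the aligner and the assembly, tools and versions were not given in the sources used here. Gene names are written without the prefix TRINITY_ and have no genome position or sequence in the files.

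Because counts were used for 5 of 6 libraries, the main test was limma 3.58.1 in R 4.3.3 on log2(TPM + 1), with a trend of the variance on the mean and without covariates, for 33919 genes with a mean of at least 1 TPM in a group, with Benjamini-Hochberg adjustment over all of them and a threshold of 0.05. Test values are printed only for genes that reach 1 TPM in both groups. The 15 alternatives were pseudocounts of 0.1 and 5, no filter, a filter on the mean of all libraries, median-of-ratios rescaling, no trend, a replicate block, edgeR 4.0.16 and DESeq2 1.42.0 on the counts, and leaving out each library. Sums were also made with NR matches alone and without a minimum. Tests were tested on simulated data. Other steps used Python 3.11.15, NumPy 2.4.6, pandas 2.3.3 and Matplotlib 3.10.9.

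The genes named are, by mean TPM over the 6 libraries, 10 intestains, 6 cathepsin L, 6 cathepsin B and up to 5 other genes, the autophagy genes that reached the minimum, each gene called higher with 1 TPM in both groups, and 3 on each side of the minimum. The members and lists were chosen with earlier results of these data known, and the list of cathepsin L protease inhibitors was added after the data were seen.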

Additional observations from a re-analysis of the deposited data

How the results depend on the processing

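Among 25 named genes with a test, under 15 alternatives each, 284 of 375 values kept their direction and side of the threshold, 69 lost and 8 gained a call, and 14 changed sign: DN65574_c4_g5 (0.50 in edgeR, 0.52 in DESeq2), DN50350_c4_g2 (0.00 in DESeq2), DN52948_c0_g2 (-0.07 with a pseudocount of 5, -1.06 in edgeR, -1.02 in DESeq2, and -0.60 to 0.88 when each library was left out), and DN62293_c0_g4 (-0.23, -0.09 and -0.06 in a range up to 0.24) and DN56791_c3_g4 (-0.09 and -0.19 in a range up to 0.32) when each library was left out. The cause was not tested. The count of genes called over the whole table, 3440 in limma, was 2138 with no filter, where 198173 genes were tested, and lay between 1765 and 3867 when each library was left out. Of the 51 cysteine protease genes, 16 were called in limma (3440 of 33919 over the whole table), 6 with a pseudocount of 5 (2627 of 33919) and 6 with no filter (2138 of 198173). In edgeR 48 of the 51 were tested and 5 were called (3224 of 36428). When each library was left out, between 2 (without antibiotic replicate 1) and 24 (without non-treatment replicate 1, 2994 of 34611) were called. Without non-treatment replicate 2 only 47 of the 51 were tested. Nothing is read from these counts, since 19 of the 51 genes entered through their non-treatment mean alone. The autophagy gene matches in Swissprot only, so its sum is 0 with NR matches alone.

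Deviations of same-numbered libraries correlated at 0.13, -0.0921 and 0.0985, and those of differently numbered libraries at -0.172 to 0.0799. With 3 libraries in each group, these values cannot decide whether replicate numbers pair the samples. With the replicate block 2615 genes and 16 of the 51 genes were called. Among those with 1 TPM in both groups, DN60282_c4_g7 gained a call (limma adjusted p = 0.0418) and DN53845_c5_g2 lost its call (0.0624). TPM carries no depth, so limma on TPM does not use the number of fragments behind a value. Differences of genes with a few fragments in every library may be missed, and this was not tested.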

Other observations

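The names of 2 genes set them outside the cysteine proteases: cathepsin L protease inhibitors 1 and 2, whose listed domain is the propeptide alone, as in 9 of the 51 cysteine protease genes. DN60199_c1_g5 read 46, 75.8 and 51.5 TPM in the libraries labelled non-treatment and 156, 255 and 81.7 TPM in the antibiotic libraries. The groups did not overlap, and the difference of mean log2(TPM + 1) was 1.38 ± 0.412 (SE, limma adjusted p = 0.0824). DN57655_c5_g1, which Swissprot names CTLA-2-alpha as it does DN62157_c2_g9, read 96.2, 110 and 124 TPM against 76.5, 112 and 89.8 TPM and overlapped between groups, with a difference of -0.25 ± 0.216 (limma adjusted p = 0.524). These genes were looked up after the data were seen.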
